A study of Homo sapiens with 9 samples.

Results

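The genes described here encode the vascular endothelial growth factors and their receptors, measured as messenger RNA in HMEC-1, an immortalised human dermal microvascular endothelial line. They are the 9 genes VEGFA, VEGFB, VEGFC, PGF, KDR, FLT1, FLT4, NRP1 and NRP2, picked by gene symbol out of the 18293 genes present in both deposited count tables, and all 9 were in both. Cells received AMI-1 at 100 µM, AMI-5 at 100 µM, or the DMSO solvent alone as control, each for 16 h in medium with 5.5 mM glucose. Each group has 3 libraries, 9 together. Both compounds are known as small-molecule inhibitors of arginine methyltransferases. AMI-1 is a sulfonated naphthol urea, and AMI-5 is a brominated dye of the xanthene class. HMEC-1 is a single line. The labels do not state whether replicates were independent cultures. Unless said otherwise, p-values come from a fit that first removes differences between replicate numbers. They measure only the spread that is then left between these libraries, which may be technical.

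As background, the ligands are secreted dimers. VEGFA acts mainly through the tyrosine kinase KDR (VEGF receptor 2), the chief driver of endothelial proliferation, migration and permeability. FLT1 (VEGF receptor 1) binds VEGFA, VEGFB and the placental growth factor PGF tightly but signals weakly, and so works largely as a sink. VEGFC signals through FLT4 (VEGF receptor 3), the receptor known for lymphatic growth. The neuropilins NRP1 and NRP2 have no kinase of their own. They present VEGF to the kinases and also serve as receptors for class 3 semaphorins.

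Total counts ran from 14454113 to 24693020 per library. Libraries carry replicate numbers 1 to 3, and libraries with the same number resembled each other. Unless said otherwise, each fit held the number as a block, meaning a term that compares libraries within a number. Of the 12 endothelial markers checked against the label, 10 were in both tables, and PECAM1 and CLDN5 were not. Their summed level was 982 to 1229.8 CPM (library-scaled counts, with TMM normalisation) with AMI-1, 772 to 1026 CPM with AMI-5 and 924 to 1294 CPM in control. The sum was uneven, with ENG highest at a mean of 480 CPM in control. VWF, EMCN and ESAM were low, with control means of 6.96, 4.19 and 1.147 CPM. Of the 4 lymphatic markers, PROX1 and LYVE1 were not in both tables, while PDPN and FLT4 were. Of 5 fibroblast markers 4 were measured, and COL1A1, which makes up nearly all of their sum, had 3272 ± 532 CPM with AMI-1, 2678 ± 407 CPM with AMI-5 and 3363 ± 731 CPM in control (SD, n = 3). The other 3 were low: COL3A1 averaged 9.95 CPM with AMI-1, 9.56 CPM with AMI-5 and 8.89 CPM in control, and LUM and PDGFRA lay between 0.561 and 2.602 CPM in every library. In control the pericyte and smooth muscle markers summed to 204 to 436 CPM, with CSPG4 highest and DES not in both tables. The epithelial markers summed to 237 to 411 CPM, with KRT18 highest and EPCAM, CDH1 and KRT5 not in both tables. Leukocyte markers summed to 28.8 to 42.2 CPM, with CD68 highest and PTPRC and CD3E not in both tables. The part of all these markers in the results below was not tested.

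The promoter sequence is shown first for NRP2, the one receptor gene called against control with each compound, and for KDR, the main signalling receptor, whose transcript was not called. Both are from RefSeq on build GRCh38.p14 and cover the 250 bases before the annotated start, at chr2:205682251-205682500 (plus strand) and chr4:55125596-55125845 (minus strand). Capitals mark the letters GGGCGG on either strand, the core of the GC box bound by SP1-type factors.
NRP2: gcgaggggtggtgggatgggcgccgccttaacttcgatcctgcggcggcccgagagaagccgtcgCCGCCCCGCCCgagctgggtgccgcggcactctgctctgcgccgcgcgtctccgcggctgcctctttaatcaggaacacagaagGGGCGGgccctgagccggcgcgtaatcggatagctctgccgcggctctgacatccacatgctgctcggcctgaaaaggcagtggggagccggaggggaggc
KDR: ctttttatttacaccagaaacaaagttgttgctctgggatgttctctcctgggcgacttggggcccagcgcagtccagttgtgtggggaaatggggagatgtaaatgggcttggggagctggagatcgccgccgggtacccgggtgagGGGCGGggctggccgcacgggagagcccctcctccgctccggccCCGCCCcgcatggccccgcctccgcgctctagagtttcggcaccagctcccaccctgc

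The NRP2 window held 3 matches to GGGCGG, of which 2 overlap by their end bases, and the KDR window held 2. In the windows of the other members found in the table there were 6 for VEGFB, 3 for FLT1, 2 for VEGFC, and 2 and 3 in the pair of start sites listed for PGF. VEGFA, FLT4 and NRP1 have no entry. Across all 35116 windows of the same length, 42.6% held at least 1 match. The hypoxia response core ACGTG was in none of the members' windows, against 18.5% of all windows, and the xenobiotic response core GCGTG was in those of VEGFB, VEGFC, FLT1 and the second PGF site, against 32.2% of all windows. A match describes these letters and says nothing of binding.

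The tables list the ligands as ENSG00000112715.16 (VEGFA, chromosome 6), ENSG00000173511.5 (VEGFB, chromosome 11), ENSG00000150630.2 (VEGFC, chromosome 4) and ENSG00000119630.8 (PGF, chromosome 14). The kinases are ENSG00000128052.8 (KDR, chromosome 4), ENSG00000102755.6 (FLT1, chromosome 13) and ENSG00000037280.11 (FLT4, chromosome 5), and the neuropilins ENSG00000099250.11 (NRP1, chromosome 10) and ENSG00000118257.12 (NRP2, chromosome 2). All 9 passed the filter on low counts.

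Levels of the 9 genes spanned a wide range. Divided by the length of the longest annotated transcript, NRP1 was highest in each group, at 42.8 ± 3.53 CPM per kb with AMI-1, 40.1 ± 0.93 with AMI-5 and 44.1 ± 2.56 in control (SD, n = 3). That placed NRP1 at the 90.6th percentile of the 17505 control genes with a known length. VEGFB followed at 25.8 ± 6.26, 21.9 ± 5.33 and 25.2 ± 5.49 CPM per kb, then VEGFC at 11.8 ± 1.64, 12.4 ± 0.80 and 11.9 ± 1.27, and NRP2 at 7.497 ± 0.57, 7.77 ± 0.20 and 9.24 ± 0.81, each with AMI-1, AMI-5 and control in that order. In each group these top 4 ranges did not overlap with their neighbours in the order.

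The middle of the order was less distinct. FLT4, PGF, VEGFA and KDR lay between 2.69 and 5.28 CPM per kb as group means. Over the 3 libraries each of these 4 overlapped the one beside it among them, and none overlapped NRP2 above or FLT1 below. FLT1, the high-affinity sink receptor, was lowest, at 1.02 ± 0.23 CPM per kb with AMI-1, 1.08 ± 0.17 with AMI-5 and 0.995 ± 0.07 in control, the 13.9th percentile of control genes. Among kinases the per-length order of the group means was FLT4 above KDR above FLT1. The FLT4 and KDR ranges overlapped in each group, and in replicate 2 of each group KDR was the higher. Neither compound changed the rank of NRP1, VEGFB, VEGFC, NRP2, VEGFA, KDR or FLT1, and only FLT4 and PGF, which overlapped, changed places. The order between genes depends on the length used. VEGFA was divided by 12167 bases, the greatest of the 9 lengths, and other transcript lengths were not tried. Undivided, VEGFA had 39.7 CPM in control, above VEGFB at 34.8 CPM (means, n = 3).

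**Figure D1:**
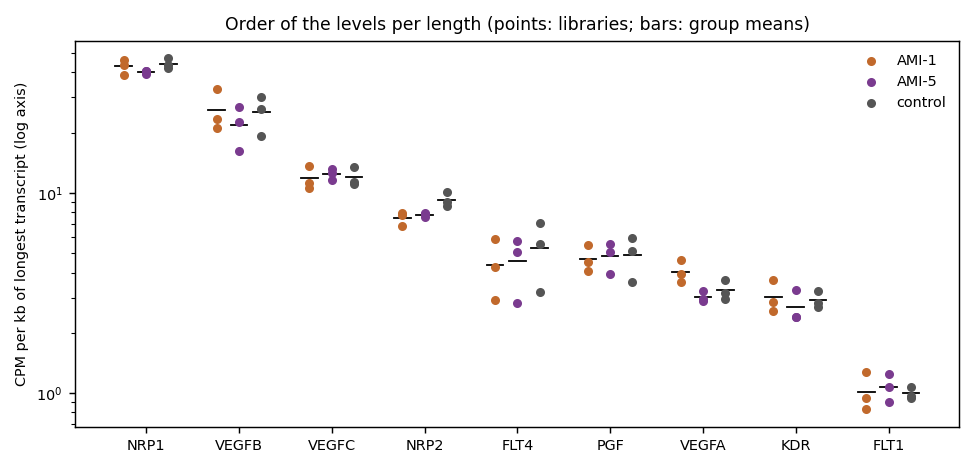
Level of each gene as CPM per kb of its longest annotated transcript (log axis), with 1 point per library and a bar at the mean of AMI-1, AMI-5 and control. NRP1 stands highest and FLT1 lowest in all 3 groups, while FLT4, PGF, VEGFA and KDR overlap among themselves.

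Comparing each compound with control asked whether the ligand and receptor transcripts respond to it. With AMI-1, VEGFA rose by 0.31 ± 0.07 (log2 fold change ± SE) and NRP2 fell by 0.30 ± 0.07, and the other 7 genes did not pass the test. With AMI-5, NRP2 was again lower, by 0.25 ± 0.06, while VEGFA had -0.11 ± 0.07 and did not pass. Called means an adjusted p under 0.05 in the quasi-likelihood test of edgeR, with Benjamini-Hochberg adjustment over all 18284 genes tested. With AMI-1 that made 1 member of 9 higher and 1 lower, against 0.421% of all genes called, 0.241% higher and 0.18% lower. With AMI-5 it made 1 of 9 lower and 0 higher, against 10.9% of all genes called, 3.42% higher and 7.45% lower. The count with AMI-5 is near that background. The members and the fit with the block were chosen with earlier results of these data known, so no enrichment is read from the member counts. At an unadjusted p under 0.05 there were 3 members with AMI-1 and 4 with AMI-5. The share of all genes at that unadjusted threshold is not given here, so nothing is read from these counts. Both comparisons use the same control libraries. Without the block, edgeR called 0 members in each, with 2 at an unadjusted p under 0.05 for AMI-1 and 1 for AMI-5. As cultures were measured in bulk, fewer expressing cells and less transcript per cell cannot be told apart.

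**Figure D2:**
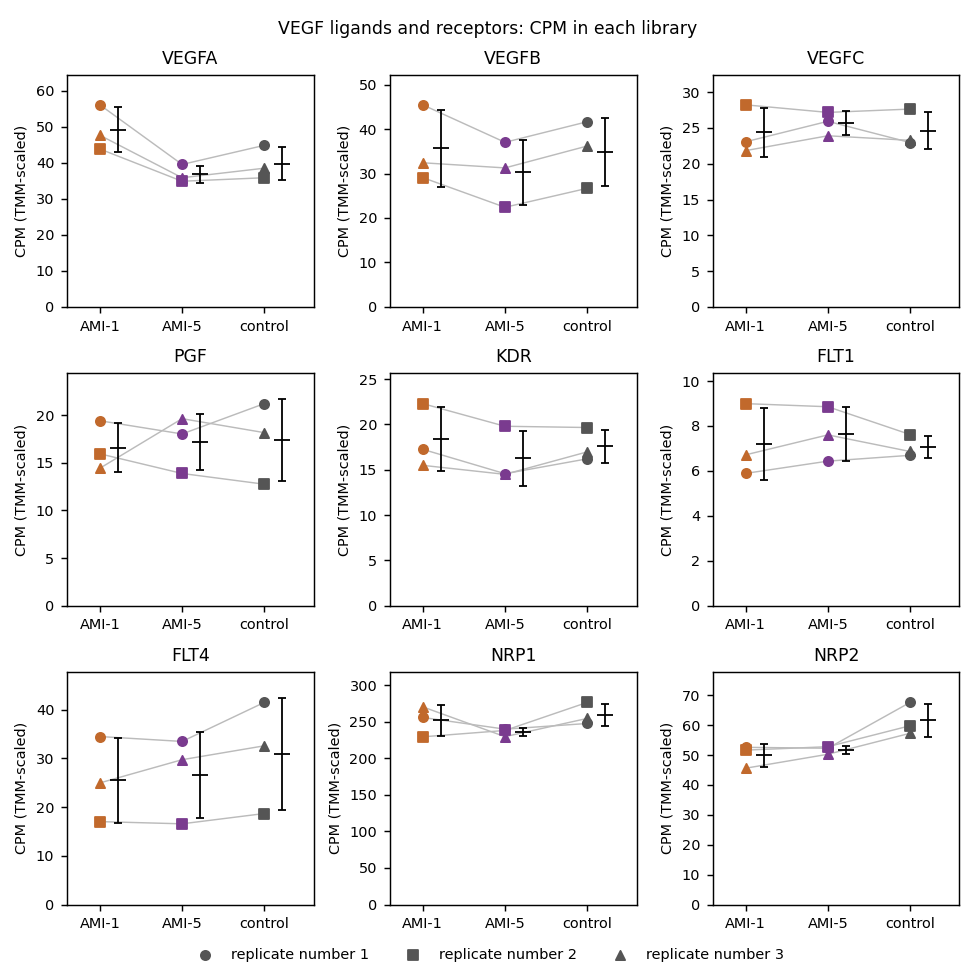
CPM of each gene in every library by group, on axes that start at 0, with grey lines joining libraries of the same replicate number and bars giving the mean ± SD of 3 libraries. VEGFA libraries with AMI-1 (43.8 to 56.1 CPM) all lie above those with AMI-5 (34.9 to 39.5 CPM), and NRP2 control libraries (57.3 to 67.6 CPM) lie above all libraries of either compound.

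VEGFA was the one ligand called, with AMI-1 against control and between the compounds. It had 56.1, 43.8 and 47.7 CPM in AMI-1 replicates 1, 2 and 3, 39.5, 34.9 and 35.9 CPM in the AMI-5 replicates, and 44.9, 35.9 and 38.5 CPM in the control replicates. The AMI-1 and control ranges overlapped and replicate 1 was highest in every group, but AMI-1 was higher within each number, by 0.32, 0.29 and 0.31 in log2 CPM. These 3 differences had an SD of 0.02. AMI-1 against control gave a 1.24-fold rise (edgeR log2 fold change 0.31, 95% interval 0.17 to 0.44, adjusted p = 0.0486). The call lay at the threshold. It ended without AMI-1 replicate 1 (adjusted p = 0.422), without control replicate 1, 2 or 3 (0.243, 0.214 and 0.434), and without AMI-5 replicate 1 or 2 (0.0846 and 0.0783), while the estimate stayed between 0.28 and 0.33 in the 9 fits that left out a library. It also ended without the block (0.31 ± 0.13, adjusted p = 0.99996), with DESeq2 (0.05004) or its size factors (0.0532), and in fits of only AMI-1 and control (0.0717) or the AMI-1 table alone (0.0577), and held with GC correction (0.34 ± 0.05, adjusted p = 0.000521).

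AMI-5 against AMI-1 gave the clearest difference in VEGFA. Within the numbers AMI-5 was lower by 0.50, 0.33 and 0.41 in log2 CPM, and the libraries of the 2 groups did not overlap. The fitted log2 fold change was -0.42 ± 0.07 (95% interval -0.56 to -0.28, edgeR adjusted p = 0.00117), or 0.749 of the AMI-1 level. That call held in all 9 fits that left out a library (adjusted p from 8.48e-05 to 0.0391), with GC correction (-0.37 ± 0.05, adjusted p = 4.61e-05) and with DESeq2 (-0.42, adjusted p = 0.000106). It ended without the block (-0.42 ± 0.13, adjusted p = 0.99999), with the estimate in place.

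VEGFA was the single member called in this direct comparison, 1 of 9 lower and 0 higher, against 5.01% of all genes called, 1.61% higher and 3.4% lower. Here 2 members had an unadjusted p under 0.05, VEGFA and VEGFB, again given without the share of all genes. Against control, VEGFA with AMI-5 differed by -0.18, -0.04 and -0.10 within the numbers (fitted -0.11, 95% interval -0.25 to 0.03, edgeR adjusted p = 0.3002).

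VEGFB, a ligand of FLT1 and NRP1, had 45.4, 29.1 and 32.4 CPM with AMI-1, 37.0, 22.4 and 31.3 CPM with AMI-5 and 41.6, 26.7 and 36.2 CPM in control. Replicate 1 was highest and replicate 2 lowest in each group, so the groups overlapped. AMI-5 was lower than control within all 3 numbers, with a fitted -0.21 ± 0.08 that did not pass (edgeR adjusted p = 0.0929). It was also lower than AMI-1 in 3 of 3 (-0.23 ± 0.08, adjusted p = 0.0957). VEGFB has the highest transcript GC content of the 9 genes, 66.7%, and GC correction moved its value against control to 0.03 ± 0.06 and that against AMI-1 to -0.06 (adjusted p = 0.595). Without AMI-1 replicate 3 both differences passed (adjusted p = 0.0171 and 0.00174), as did that from AMI-1 without AMI-5 replicate 3 (adjusted p = 0.0494). With AMI-1 it had 0.02 ± 0.08 (95% interval -0.14 to 0.19).

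VEGFC had 23.1, 28.2 and 21.8 CPM with AMI-1, 25.9, 27.2 and 23.9 CPM with AMI-5 and 23.0, 27.6 and 23.3 CPM in control. Groups overlapped almost fully. Its fitted change was -0.02 (95% interval -0.18 to 0.14) with AMI-1, and the AMI-5 value was 0.06 (-0.10 to 0.23).

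PGF, a ligand of FLT1 alone among the kinases, had 19.4, 16.0 and 14.4 CPM with AMI-1, 18.0, 13.9 and 19.6 CPM with AMI-5 and 21.2, 12.8 and 18.2 CPM in control. Its differences within numbers were the most scattered of the ligands: with AMI-1 they were -0.13, 0.32 and -0.33. The intervals were accordingly wide, -0.31 to 0.18 with AMI-1 and -0.25 to 0.24 with AMI-5.

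**Figure D3:**
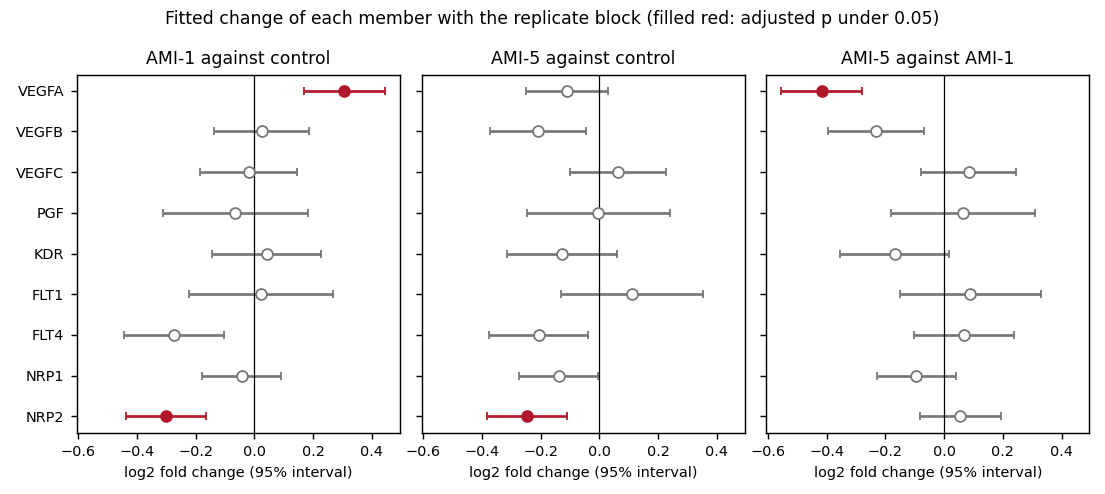
Log2 fold change of each gene with its 95% interval from the edgeR fit with the replicate block, with 1 panel for each compound against control and 1 for AMI-5 against AMI-1. Filled red points passed the adjusted threshold: VEGFA at 0.31 and -0.42, and NRP2 at -0.30 and -0.25.

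Of the kinase receptors, none passed in the fit reported here. KDR had 17.2, 22.3 and 15.5 CPM with AMI-1, 14.6, 19.8 and 14.5 CPM with AMI-5 and 16.2, 19.7 and 17.0 CPM in control. Replicate 2 was highest in each group, and the groups overlapped. The fitted change was 0.04 (95% interval -0.14 to 0.23) with AMI-1 and -0.13 (-0.31 to 0.06) with AMI-5. AMI-5 was below AMI-1 within 3 of 3 numbers (-0.17 ± 0.09, edgeR adjusted p = 0.305).

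FLT1 rested on the fewest reads, 84 to 180 per library. It had 5.89, 8.99 and 6.72 CPM with AMI-1, 6.44, 8.86 and 7.60 CPM with AMI-5 and 6.69, 7.62 and 6.86 CPM in control. The groups overlapped, and the intervals ran from -0.22 to 0.27 with AMI-1 and from -0.13 to 0.35 with AMI-5.

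FLT4 had 34.5, 17.0 and 24.97 CPM with AMI-1, 33.5, 16.6 and 29.7 CPM with AMI-5 and 41.5, 18.7 and 32.6 CPM in control. Its level depended mostly on the replicate number, which took 92.2% of its sum of squares in log2 CPM, against 5.93% for treatment. Within the numbers each compound was nonetheless below control in 3 of 3. AMI-1 differed by -0.27, -0.13 and -0.38 in log2 CPM, and AMI-5 by -0.31, -0.17 and -0.13. The fitted values were -0.27 ± 0.08 (edgeR adjusted p = 0.200) and -0.21 ± 0.08 (adjusted p = 0.103), neither of which passed. GC correction took them to -0.22 ± 0.06 (adjusted p = 0.0396) and -0.03 ± 0.06 (adjusted p = 0.754). The AMI-5 value passed without AMI-1 replicate 3 (adjusted p = 0.0257) or AMI-5 replicate 3 (adjusted p = 0.0378). The FLT4 transcript has a GC content of 61.9%.

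Of the neuropilins, NRP2 was called with each compound and NRP1 with neither. NRP2 lay at the 57.2nd percentile of control genes per length, against the 90.6th for NRP1. NRP2 had 52.6, 51.6 and 45.6 CPM with AMI-1, 52.3, 52.8 and 50.3 CPM with AMI-5 and 67.6, 59.8 and 57.3 CPM in control. Every library of either compound lay below every control library. AMI-1 differed from control by -0.36, -0.21 and -0.33 in log2 CPM within the numbers, and AMI-5 by -0.37, -0.18 and -0.19.

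With AMI-1, NRP2 was at 0.811 of control (-0.30, 95% interval -0.44 to -0.17, edgeR adjusted p = 0.0499), again at the threshold. The call ended without AMI-1 replicate 1 or 3 (adjusted p = 0.359 and 0.0525), without AMI-5 replicate 1 or 2 (0.0846 and 0.0880), and without control replicate 1, 2 or 3 (0.487, 0.0832 and 0.355), with estimates from -0.34 to -0.25. It also ended in fits of only AMI-1 and control (0.0879) or the AMI-1 table alone (0.0614) and with DESeq2 size factors (0.0613), and held with GC correction (-0.29 ± 0.05, adjusted p = 0.00115). With AMI-5, NRP2 was at 0.843 of control (-0.25, 95% interval -0.38 to -0.11, edgeR adjusted p = 0.0219). That call ended without control replicate 1 or 3 (adjusted p = 0.234 and 0.140), AMI-5 replicate 1 or 2 (0.178 and 0.109) or AMI-1 replicate 1 (0.0548), and held with GC correction (-0.22 ± 0.05, adjusted p = 0.00487) and DESeq2 (-0.25, adjusted p = 0.0277). Without the block both calls ended (-0.30 ± 0.11 and -0.25 ± 0.11, adjusted p = 0.99996 and 0.99987). AMI-5 and AMI-1 differed in NRP2 by 0.06 (95% interval -0.08 to 0.19, edgeR adjusted p = 0.698).

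NRP1 had 255.7, 229.3 and 270.2 CPM with AMI-1, 239.7, 238.0 and 229.5 CPM with AMI-5 and 247.5, 276.3 and 254.4 CPM in control. AMI-5 libraries lay below all control libraries, while AMI-1 libraries overlapped both. The difference with AMI-5 was small and did not pass (-0.14 ± 0.06, edgeR adjusted p = 0.170), but it passed with GC correction (-0.18 ± 0.04, adjusted p = 0.00773) and without AMI-1 replicate 3 (adjusted p = 0.0455). With AMI-1 the value was -0.04 (95% interval -0.18 to 0.09).

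In annotation, the exons of VEGFA, NRP1 and NRP2 overlap antisense genes, and those of the other 6 members overlap no other gene. The strand setting of the counting is not given in the sources used here, so reads of these partners cannot be told apart from those of the 3 genes.

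**Figure D4:**
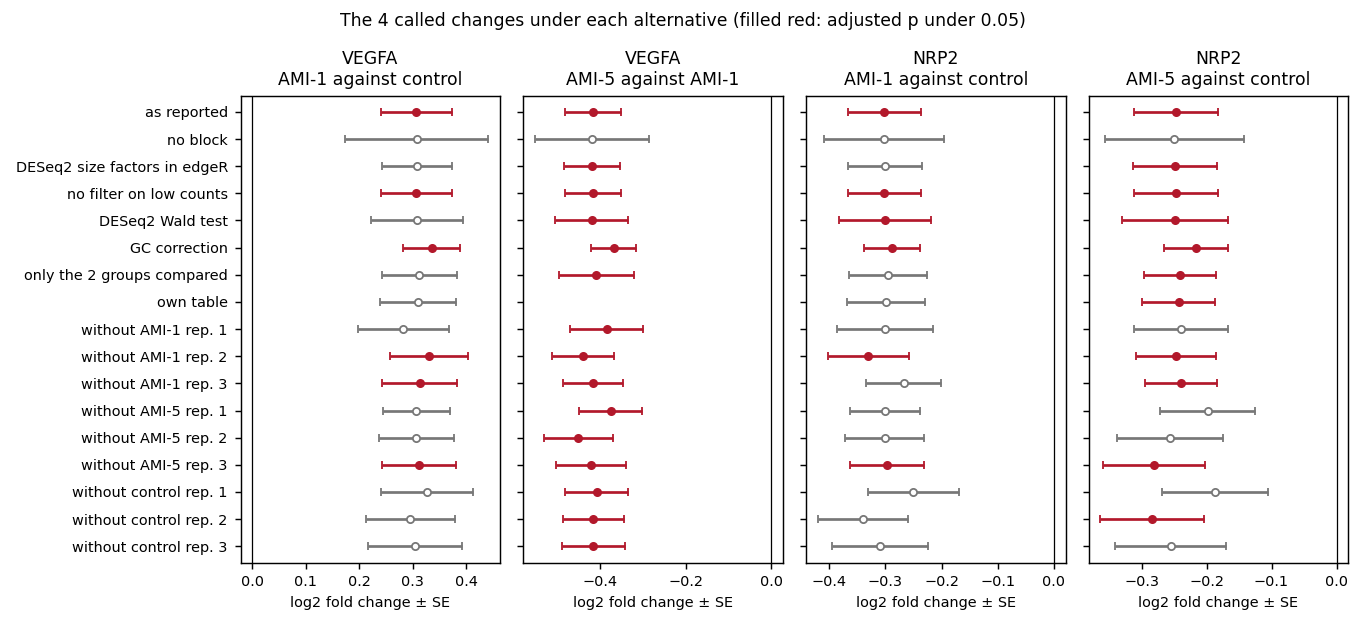
The 4 called values (VEGFA in AMI-1 against control and between the compounds, NRP2 in either compound against control) as log2 fold change ± SE as reported and under each alternative, including the 9 fits without a library. Every point lies on the same side of 0, and VEGFA in AMI-5 against AMI-1 is filled red (adjusted p under 0.05) in all settings but the fit with no block.

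The members did not move as 1 group. Median log2 fold changes over the 9 were -0.02 with AMI-1, -0.13 with AMI-5 and 0.06 for AMI-5 against AMI-1, where the medians over all genes tested were -0.002, -0.005 and -0.006. With AMI-5, 7 of 9 lay below 0, and GC correction brought the median to -0.03. Treatment took 66.8% of the sum of squares in log2 CPM for VEGFA and 72.5% for NRP2, against 0.817% to 39.2% for the others.

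After each replicate number's mean was subtracted, FLT4 and NRP2 ran closest together over the 9 libraries (Pearson r = 0.956), followed by VEGFB and KDR (r = 0.855). FLT1 and NRP1 ran most opposite (r = -0.911). VEGFA had r = -0.377 with NRP2. These values describe libraries that share numbers and treatments. Across the 15280 genes with an average log2 CPM above 1, the genes most like VEGFA were IGFBP4 (r = 0.994), SEPT8 (r = 0.990) and SHISA2 (r = 0.989). IGFBP4, which encodes an insulin-like growth factor binding protein, had a log2 fold change of 0.52 with AMI-1 and -0.28 with AMI-5. SEPT8 had 0.08 and -0.04, and SHISA2 0.78 and -0.32. Genes picked for the highest r among so many, over 9 libraries, have a high r by that choice, so nothing is read from its size. Those nearest NRP2 were RP1-140K8.5 (r = 0.988), LAPTM4B (r = 0.988) and ASCC2 (r = 0.983). KDR ran with RP11-876N24.5 (r = 0.984), SPRN (r = 0.981) and C5orf4 (r = 0.978), and NRP1 with MYCBP2 (r = 0.984), MED1 (r = 0.972) and SSFA2 (r = 0.967).

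The wider pathway was described with 7 lists of 143 genes other than the members, of which 127 were tested. Without the block 0 of them were called in any comparison, with 3, 3 and 7 at an unadjusted p under 0.05 for AMI-1, AMI-5 and AMI-5 against AMI-1. With AMI-1, 2 genes were higher, 1 was lower and 124 were not called, where 0.421% of all genes were called. At an unadjusted p under 0.05 there were 20, also given without the share of all genes. Of 25 measured VEGF response genes 2 rose with AMI-1: EGR1, an immediate early transcription factor (0.65 ± 0.14, edgeR adjusted p = 0.0413), and STC1, the stanniocalcin gene (0.46 ± 0.10, adjusted p = 0.0395). Among 10 genes of other endothelial growth factor systems, the apelin gene APLN fell by 0.49 ± 0.08 (adjusted p = 0.00576). These 3 calls held in 4, 2 and 6 of the 9 fits without a library, and the pathway count was 0 without AMI-1 replicate 1 or control replicate 1, 1 without AMI-5 replicate 1 or control replicate 2 or 3, and 5 without AMI-1 replicate 2. With GC correction 3 genes were higher and 9 lower, where 225 of all 18284 genes were higher and 345 lower. Calls were 0 of 37 in receptor kinase signalling, 0 of 22 in receptor trafficking and dampening, 0 of 15 among upstream regulators of VEGFA, 0 of 11 among neuropilin ligands and co-receptors, and 0 of 7 in VEGFC and VEGFD maturation.

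Transcripts of the regulators known to act on VEGFA did not pass with AMI-1. The protein levels and activity of these regulators were not measured. The hypoxia-inducible factor genes HIF1A and EPAS1 had 0.04 ± 0.06 and -0.06 ± 0.06, their partner ARNT 0.08 ± 0.06, and VHL, whose product marks them for destruction, -0.01 ± 0.06 (edgeR adjusted p from 0.669 to 0.979). HIF1A stood at 368.0 ± 89.8 CPM with AMI-1 and 362.6 ± 110.7 CPM in control (SD, n = 3). In AMI-5 against AMI-1, where VEGFA was lower, HIF1A had -0.02 ± 0.06, EPAS1 0.11 ± 0.06 and ARNT -0.20 ± 0.06 (adjusted p = 0.886, 0.306 and 0.0685). With GC correction EPAS1 (adjusted p = 0.0186) and ARNT (adjusted p = 0.00281) passed. Of the 15 regulators 3 were lower in that comparison: ZFP36L1, an RNA-binding protein that destabilises AU-rich transcripts (-0.25 ± 0.05, adjusted p = 0.0109), STAT3 (-0.20 ± 0.05, adjusted p = 0.0324) and the prolyl hydroxylase gene EGLN2 (-0.31 ± 0.08, adjusted p = 0.0415). These calls held in 6, 3 and 3 of the 9 fits without a library.

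With AMI-5 against control, 5 pathway genes were higher and 29 lower of 127, with a median of -0.06, where 3.42% of all genes were called higher and 7.45% lower. The counts of the single lists stand against the same shares. Those after GC correction stand against 937 genes higher and 1482 lower of all 18284. The count depended on single libraries, at 2 without AMI-5 replicate 1, 1 without AMI-5 replicate 2, 18 without AMI-1 replicate 1, and 1 and 2 without control replicates 1 and 3. In receptor kinase signalling 3 of 37 rose and 10 fell, with 1 and 6 after GC correction. The lowest adjusted p-values were those of the focal adhesion gene PXN (-0.27 ± 0.06, edgeR adjusted p = 0.0101), the phosphoinositide 3-kinase subunit gene PIK3R2 (-0.32 ± 0.07, adjusted p = 0.0103), the sphingosine kinase gene SPHK1 (-0.33 ± 0.07, adjusted p = 0.0105) and PLCG1, the phospholipase recruited by KDR (-0.25 ± 0.06, adjusted p = 0.0115). Each held its call in 5 of the 9 fits without a library. GC correction ended the calls of PIK3R2 (adjusted p = 0.0949) and SPHK1 (adjusted p = 0.135).

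In receptor trafficking and dampening 1 of 22 rose with AMI-5 and 4 fell, with 1 and 6 after GC correction. The ephrin gene EFNB2, which aids internalisation of VEGF receptors, rose by 0.20 ± 0.06 (edgeR adjusted p = 0.0477). CDH5, the VE-cadherin gene, fell by 0.28 ± 0.06 (adjusted p = 0.00873), EPHB4 by 0.28 ± 0.07 (adjusted p = 0.0188), the neuropilin adaptor gene GIPC1 by 0.31 ± 0.08 (adjusted p = 0.0254) and the epsin gene EPN1 by 0.27 ± 0.08 (adjusted p = 0.0395). GC correction ended the call of GIPC1 (adjusted p = 0.103). The calls of CDH5 and EPHB4 held in 5 of the 9 fits without a library, those of GIPC1 and EPN1 in 4, and that of EFNB2 in 2.

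Neuropilin partners fell with AMI-5 in 4 of 11 cases and rose in 0, with 2 and 0 after GC correction. SEMA3F, a semaphorin that binds NRP2, fell by 0.39 ± 0.08 (edgeR adjusted p = 0.00738). The plexin co-receptor genes PLXND1, PLXNA1 and PLXNA2 fell by 0.29 ± 0.07, 0.26 ± 0.08 and 0.21 ± 0.06 (adjusted p = 0.0194, 0.0332 and 0.0334), and GC correction ended the calls of PLXND1 (adjusted p = 0.107) and PLXNA1 (adjusted p = 0.156). SEMA3F and PLXND1 held their calls in 5 of the 9 fits without a library, and PLXNA1 and PLXNA2 in 4. VEGFC maturation genes fell in 2 of 7: CCBE1, a cofactor of its cleavage (-0.24 ± 0.05, adjusted p = 0.00963), and FURIN, a proprotein convertase (-0.34 ± 0.08, adjusted p = 0.0140). The VEGFD gene was not in both tables under its symbol FIGF and was not analysed. Other growth factor systems fell in 2 of 10, APLN (-0.53 ± 0.08, adjusted p = 0.000878) and the angiopoietin receptor homologue gene TIE1 (-0.23 ± 0.07, adjusted p = 0.0343), of which TIE1 lost its call with GC correction (adjusted p = 0.196). EGLN2 (-0.36 ± 0.08, adjusted p = 0.0119) and ZFP36L1 (-0.21 ± 0.05, adjusted p = 0.0209) fell among 15 upstream regulators.

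VEGF response genes split with AMI-5, with 1 of 25 higher, 5 lower and 19 not called. The calcineurin inhibitor gene RCAN1, induced by VEGF through NFAT, rose by 0.23 ± 0.06 (edgeR adjusted p = 0.0230). PLAT, the tissue plasminogen activator gene, fell by 0.21 ± 0.05 (adjusted p = 0.0151), the kinase feedback gene SPRY4 by 0.37 ± 0.09 (adjusted p = 0.0177) and the urokinase gene PLAU by 0.20 ± 0.05 (adjusted p = 0.0216). The phosphatase genes DUSP4 and DUSP5 were the other ones lower. GC correction gave 4 higher and 7 lower.

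In AMI-5 against AMI-1 the response genes held the firmest pathway calls. RCAN1 had 89.7, 103.1 and 92.3 CPM with AMI-5, and 59.1, 73.8 and 71.8 CPM with AMI-1, with no overlap (0.48 ± 0.06, edgeR adjusted p = 0.000159). STC1 had 10.8, 10.1 and 10.9 CPM with AMI-5, and 16.2, 13.4 and 18.2 CPM with AMI-1 (-0.59 ± 0.10, adjusted p = 0.00135). SPRY2, a feedback inhibitor of receptor kinases, had 23.3, 24.96 and 22.3 CPM with AMI-5, and 30.1, 32.0 and 30.9 CPM with AMI-1 (-0.40 ± 0.07, adjusted p = 0.00323). These 3 calls survived GC correction and the omission of any 1 of the 9 libraries. PLAT was lower too (-0.21 ± 0.05, adjusted p = 0.0210), with calls in 4 of 9.

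The direct comparison called 4 of 127 pathway genes higher and 17 lower, with a median of -0.06, where 1.61% of all genes were called higher and 3.4% lower. Receptor kinase signalling had 5 of 37 lower and 0 higher, led by MAPK3 (-0.36 ± 0.07, edgeR adjusted p = 0.00514), the endothelial nitric oxide synthase gene NOS3 (-0.46 ± 0.12, adjusted p = 0.0305), PIK3R2 (-0.27 ± 0.07, adjusted p = 0.0348) and the small heat shock gene HSPB1 (-0.34 ± 0.09, adjusted p = 0.0354). GC correction ended the call of PIK3R2 (adjusted p = 0.0709). In trafficking, EFNB2 was higher (0.32 ± 0.06, adjusted p = 0.00718), and CDH5 (-0.24 ± 0.06, adjusted p = 0.0225) and GIPC1 (-0.30 ± 0.08, adjusted p = 0.0486) were lower. Of the semaphorins, SEMA3C was higher (0.21 ± 0.06, adjusted p = 0.0388) and SEMA3F lower (-0.31 ± 0.08, adjusted p = 0.0340). TIE1 was lower by -0.31 ± 0.07 (adjusted p = 0.0115). In VEGFC maturation the protease gene ADAMTS3 was higher (0.43 ± 0.11, adjusted p = 0.0294), and FURIN (-0.30 ± 0.08, adjusted p = 0.0374) and ADAMTS2 (-0.46 ± 0.12, adjusted p = 0.0416) were lower. EFNB2 held its call in 7 of the 9 fits without a library, MAPK3 in 6, and NOS3, SEMA3F and TIE1 in 5. HSPB1, CDH5, ADAMTS3 and FURIN held theirs in 4, PIK3R2, GIPC1 and SEMA3C in 3, and ADAMTS2 in 2. Omitting AMI-1 replicate 1, 2 or 3 gave 3, 9 and 44 called genes. Omitting AMI-5 replicate 1 or 2 gave 4 and 3, and omitting control replicate 1 or 3 gave 11 and 13.

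**Figure D5:**
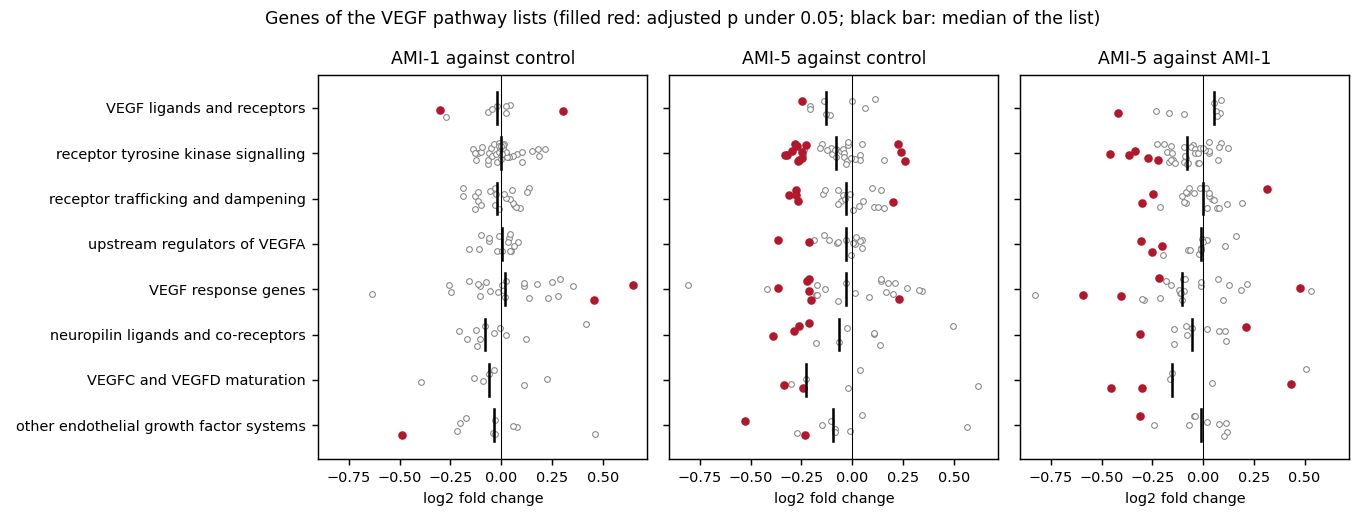
Log2 fold change of the 9 members and of each measured gene of the 7 pathway lists in the 3 comparisons, 1 point per gene with vertical jitter, filled red where the adjusted p was under 0.05, and a black bar at each list's median. Against control, 3 pathway genes are called with AMI-1 and 34 with AMI-5, and 21 differ between AMI-5 and AMI-1, most of them below 0.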

How the data were processed

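Poly-A RNA libraries of HMEC-1 cells were analysed from 2 deposited tables of raw read counts per gene, 1 per compound, each with the control libraries. The submitters' processing notes list BWA, bedtools and hg19. No version, annotation or strand setting is given in these sources. Control counts were identical in both tables, and 0 columns were unmapped. The smallest mean count in either table was 10.

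Genes in both tables were tested with edgeR 4.0.16 in R 4.3.3 (TMM, filterByExpr, quasi-likelihood F test) over all genes in 1 fit of 9 libraries, with the replicate number as a block. filterByExpr removed 9 genes. The numbers were taken as pairs because deviations from group means, correlated across genes, were above 0.1 for all 9 pairs with the same number (0.431 to 0.871, against -0.804 to 0.204 otherwise). The biological coefficient of variation was 5.64% with the block and 23.7% without. A standard error is the log2 fold change over the root of its F value. Log2 CPM used a prior count of 2. Length and GC content are those of each gene's longest transcript in GENCODE on GRCh38, known for 95.7% of genes tested. GC correction used a lowess curve (span 0.3) per library as an offset. DESeq2 1.42.0 was an alternative. The fit was also run on simulated counts whose set changes were larger than those of the called members. That run therefore does not bear on changes of their size. Total counts limit precision, most for FLT1.

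Members, lists and the blocked fit were chosen with earlier results of these data known. Named genes are all 9 members, up to 4 called genes per pathway list and comparison with the lowest adjusted p, and the 3 genes most correlated with VEGFA, KDR, NRP1 and NRP2. HIF1A, EPAS1, ARNT, VHL, EFNB2 with AMI-5 against control, DUSP4 and DUSP5 fall outside that rule and were named after their values were seen.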

Additional observations from a re-analysis of the deposited data

How the results depend on the processing

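Directions held for all 4 called values in every alternative that was run. Of 27 member values, 17 kept their sign throughout and 10 did not, all of them uncalled. Without a replicate block edgeR called 0 members, 0 genes and 0 pathway genes in all 3 comparisons, where an unadjusted p under 0.05 was reached by 188, 494 and 483 genes and by 3, 3 and 7 pathway genes. DESeq2 with the replicate block called 75, 1350 and 702 genes.

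For AMI-1 against control, members called were 0 with DESeq2 size factors, 0 in the fit of only the 2 groups, 0 in the compound's own table, and 1 with DESeq2. With GC correction 1 member was higher and 2 were lower, where 225 of all 18284 genes were higher and 345 lower. That setting called 570 genes and 12 pathway genes. DESeq2 called 1 pathway gene. Leaving out a library gave 0 to 2 members, 14 (without AMI-1 replicate 1) to 308 genes (without AMI-1 replicate 2) and 0 to 5 pathway genes.

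For AMI-5 against control, GC correction called 2 members, both lower, where 937 of all 18284 genes were higher and 1482 lower. Members called were 4 (VEGFB, FLT4, NRP1 and NRP2) in the fit of only the 2 groups and in the compound's own table, which called 4286 and 4328 genes. Leaving out a library gave 0 to 4 members, 172 (without AMI-5 replicate 1) to 4232 genes (without AMI-1 replicate 3) and 1 to 49 pathway genes. For AMI-5 against AMI-1, GC correction called 2 members (FLT4 higher, 0.18, adjusted p = 0.0443), 2037 genes and 37 pathway genes. Leaving out a library gave 1 to 2 members, 195 (without AMI-5 replicate 1) to 3408 genes (without AMI-1 replicate 3) and 3 to 44 pathway genes.

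Signs turned with GC correction for VEGFB (0.034) and PGF (0.078) in AMI-5 against control. They turned when a library was left out for VEGFB (-0.030 to 0.13), VEGFC (-0.069 to 0.018), PGF (-0.21 to 0.12), KDR (-0.031 to 0.12), FLT1 (-0.067 to 0.10) and NRP1 (-0.11 to 0.048) with AMI-1, for PGF (-0.15 to 0.10) with AMI-5, and for PGF (-0.12 to 0.21) and FLT4 (-0.019 to 0.13) in AMI-5 against AMI-1. The cause was not tested. Testing with no filter on low counts moved no member's call. The prior count enters the log2 CPM differences alone and no call. The compound's own table gives no value for AMI-5 against AMI-1.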
